A study of Mus musculus with 18 samples.

Results

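The subunits of the mitochondrial respiratory chain and of ATP synthase were followed by RNA-Seq in mouse pluripotent cells held in an OSKM medium or in 2iL. The members were chosen by symbol alone, as genes named Nduf with a letter and a number, Sdha to Sdhd, Uqcr, Cox4 to Cox8 and Atp5, with names marked as pseudogenes left out and with the subunits encoded in mitochondrial DNA kept apart. Of 55469 genes in the files, 101 were members. These were 88 nuclear entries with 87 distinct symbols, since Atp5o is listed under 2 gene identifiers, and 13 mitochondrial genes. By symbol, 39 of the nuclear entries belonged to complex I, 4 to complex II, 8 to complex III, 19 to complex IV and 18 to complex V. An FPKM (fragments per kilobase of transcript, scaled to the fragments mapped in a library) over 1 was reached in at least 1 library by 81 nuclear entries, and 2, Cox8b and the other entry of Atp5o, were listed at 0 in all 18 libraries. The annotation holds 4 nuclear members as processed pseudogenes (Ndufa11b, Ndufb4c, Ndufs6b and Cox6c2).

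OSKM-ESCs were ESCs of a Tet-On-OSKM/Oct4-GFP line, moved from 2iL to N2B27 with doxycycline (DOX) and collected at days 18, 25 and 38 with 2 cultures each, and 2iL-ESCs of the same line, days and number stayed in N2B27 with PD0325901, CHIR99021 and LIF. Both carried 1 polycistronic cassette for Oct4, Sox2, Klf4 and c-Myc in Col1a1 and M2rtTA in Rosa26, with a (C57BL/6 x 129S4/SvJae)F1 crossed to a (CBA/CaJ X C57BL/6J)F2 as strain. OSKM-iPSCs (clones 1 and 3, at passages 7 and 6), 2iL-iPSCs (clones 3 and 6, at passages 2 and 3) and 2 libraries of MEF cells at passage 4, grown in DMEM with FBS, were of the (C57BL/6 x 129S4/SvJae)F1 strain and Tet-On-OSKM. The ESCs are 1 line and each iPSC sample is 1 clone, the methods describe fibroblast feeder cells under ESCs and during reprogramming, and passage and medium cannot be told apart in the iPSCs. For 2iL-iPSCs the labels give N2B27 with DOX as daily culture, whereas the study's methods and design text give 2iL.

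The respiratory chain passes electrons from NADH (complex I) and succinate (complex II) through ubiquinone, complex III and cytochrome c to oxygen at complex IV, and ATP synthase (complex V) uses the proton gradient that complexes I, III and IV build. Complex II is encoded in the nucleus as a whole, and the others join nuclear subunits with subunits made from mitochondrial DNA. Several subunits of complex IV exist as a widely expressed isoform and a tissue-restricted one, such as Cox7a2 and the muscle isoform Cox7a1, or Cox6b1 and the testis isoform Cox6b2. Mouse pluripotent cells are known to shift between respiration and glycolysis as they move between the naive and primed states.

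Bases just upstream of the annotated starts of those 2 isoform pairs are shown because Cox7a1 and Cox6b2 had the largest differences between the media in ESCs on the log2(FPKM + 1) scale, and larger ones than their partners. Each stretch is 100 bases, 5′ to 3′ on the gene's strand, from RefSeq's promoter table on GRCm38.p6, with CG dinucleotides in capitals. Cox7a1 is at chr7:30184044-30184143 (+), Cox7a2 at chr9:79759879-79759978 (-), Cox6b2 at chr7:4753095-4753194 (-) and Cox6b1 at chr7:30626152-30626251 (-).
Cox7a1: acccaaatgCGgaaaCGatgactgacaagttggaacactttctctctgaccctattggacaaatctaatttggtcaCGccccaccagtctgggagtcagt
Cox7a2: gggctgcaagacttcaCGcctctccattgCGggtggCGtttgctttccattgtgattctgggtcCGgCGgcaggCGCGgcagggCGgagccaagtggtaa
Cox6b2: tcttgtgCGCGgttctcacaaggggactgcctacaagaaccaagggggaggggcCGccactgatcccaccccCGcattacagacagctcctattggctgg
Cox6b1: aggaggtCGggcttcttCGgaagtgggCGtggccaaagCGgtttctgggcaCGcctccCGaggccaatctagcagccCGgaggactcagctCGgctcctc
The stretch of Cox7a1 held 3 CG dinucleotides and that of Cox7a2 8, and the stretch of Cox6b2 held 4 and that of Cox6b1 8. In the whole window of 300 bases around the start, Cox7a1 held 7 CG and Cox6b2 10, against a median of 19.0 over the 68 member symbols matched in the table and of 7.0 over all 32841 windows.

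Levels are given first for the complexes as wholes. The summed FPKM of the nuclear subunits of complex IV lay between 1697 and 2583 with a median of 1788 in OSKM-ESCs and between 2233 and 2953 with a median of 2384 in 2iL-ESCs. The OSKM-ESC libraries were thus mostly below, but the ranges overlapped through replicate 1 of day 18. For complex V the sums had medians of 3160 in OSKM-ESCs and 3924 in 2iL-ESCs, for complex III 784.6 and 1003, for complex I 2104 and 2336, and for complex II 285.7 and 314.4, each with overlapping ranges. OSKM-iPSCs had complex IV sums of 1883 and 2495, 2iL-iPSCs 2543 and 3016, and MEF cells 1920 and 1992. In all, the nuclear members took 1.86% to 2.82% of each library's summed FPKM. The highest mean over the 18 libraries was that of Atp5b, the catalytic beta subunit of ATP synthase, at 848.4 FPKM, followed by its partner Atp5a1 at 501.2 and by Cox4i1 at 382.4, and the lowest means among members over 1 FPKM were those of Cox4i2, Cox7b2 and Ndufb4c, each under 1.

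**Figure D1:**
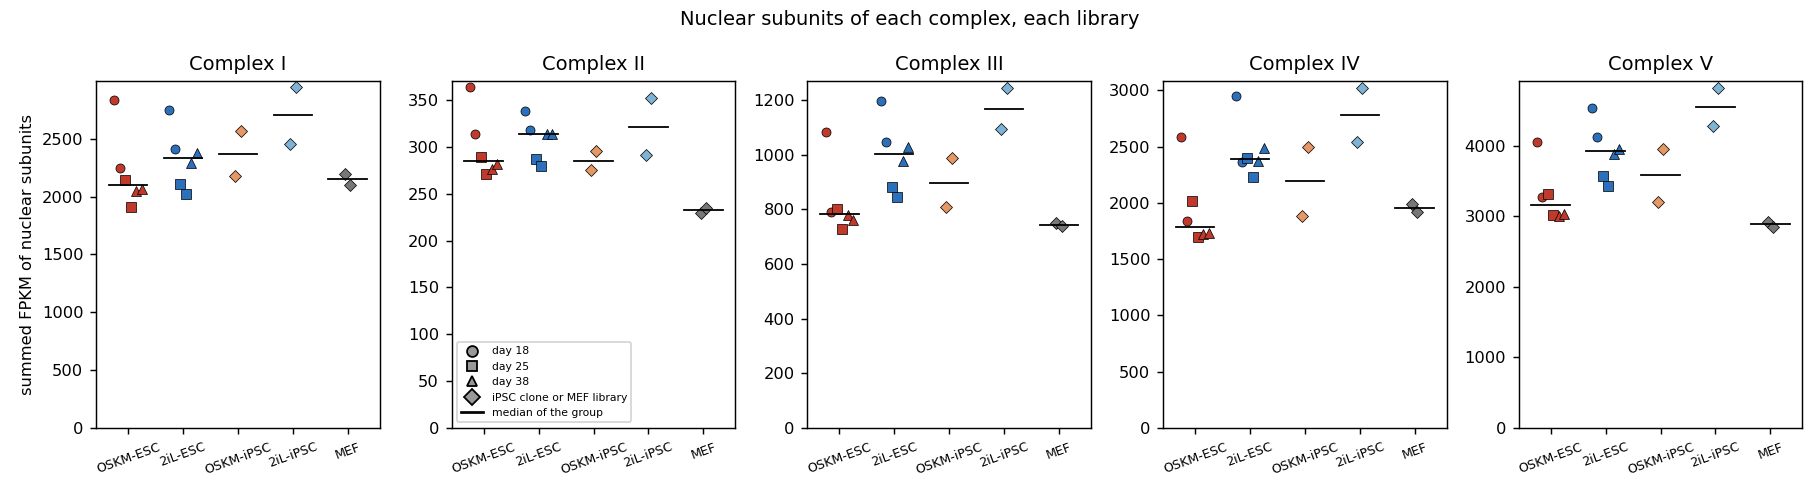
Summed FPKM of the nuclear subunits of each complex in every library, by group, with the day as the symbol and a line at the group median. In complexes III, IV and V the OSKM-ESC median lies below the 2iL-ESC median (1788 against 2384 in complex IV), and the circle of day 18 replicate 1 stands highest among OSKM-ESCs.

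The libraries of day 18 differed within their groups. Replicate 1 exceeded replicate 2 by a median of 0.37 (log2) over the 80 members tested in OSKM-ESCs and by 0.188 in 2iL-ESCs, where the median over all genes tested was -0.034 and -0.033. The 88 nuclear entries had a median transcript length of 929 bases against 3027 for all genes over 1 FPKM, and the results below are also given, where they change, with a trend on transcript length removed. The labelled cell types showed their markers. The 8 pluripotent markers summed to 1132 to 1768 FPKM in OSKM-ESCs, 2607 to 3009 in 2iL-ESCs, 914.9 and 1626 in OSKM-iPSCs, 2675 and 3109 in 2iL-iPSCs and at most 2.06 in MEF cells, where 5 of the 8 were at 0 in both libraries. Among these markers, Pou5f1 (Oct4) and Sox2 are also on the DOX-induced cassette, and its part in their values was not tested. The 10 fibroblast markers summed to 934.4 and 1116 FPKM in MEF cells, to 16.04 to 27.3 in OSKM-ESCs and to 3.32 to 5.61 in 2iL-ESCs, with none of them at 0 in every library of either ESC group.

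Medium in ESCs was compared over all days with day as a covariate. DOX, the factors it induces and the loss of PD0325901, CHIR99021 and LIF changed together, so their parts cannot be told apart. Nuclear subunits were more often lower than higher in OSKM-ESCs: among 80 tested, 32 were downregulated and 3 upregulated at an adjusted p under 0.05 (limma). These are 40.0% and 3.75% of the members, against 24.4% and 29.5% of the 14016 genes tested. The median difference of the members was -0.13 on the log2(FPKM + 1) scale and that of all genes 0.03, and 60 of the 80 members had a negative difference. With FPKM rescaled to TPM, where the median of all genes was 0.07, the counts were 27 lower and 8 higher. Only Cox7a1 and Cox6b2 differed by at least 2-fold on this scale, and the other 30 falls were smaller. In bulk RNA, fewer cells of a type and less RNA per cell cannot be told apart, and the higher fibroblast marker sum of OSKM-ESCs, given above, moved with the medium. Its part in these differences was not tested.

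By complex, complex IV had 11 of 15 tested subunits downregulated and 0 upregulated (median difference -0.39), complex V 8 of 17 and 0 (-0.14), complex III 4 of 8 and 0 (-0.20), complex I 9 of 36 and 3 (-0.07), and complex II 0 of 4 and 0 (-0.06). Of all genes tested, 24.4% were downregulated and 29.5% upregulated, so the downregulated count of complex I is near the background share. Of the 80 members, 12 had every OSKM-ESC library below every 2iL-ESC library and 0 the reverse, where 12% and 14.6% of all genes tested did so. The count of 12 is near its background share, and the count of the reverse is below its own. Among the 12 were Ndufa6, Ndufb5, Ndufv1 and Ndufv3 of complex I, Uqcrc1 of complex III, Cox4i1, Cox5a, Cox6b2 and Cox7a1 of complex IV, and Atp5a1 and Atp5b of complex V.

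**Figure D2:**
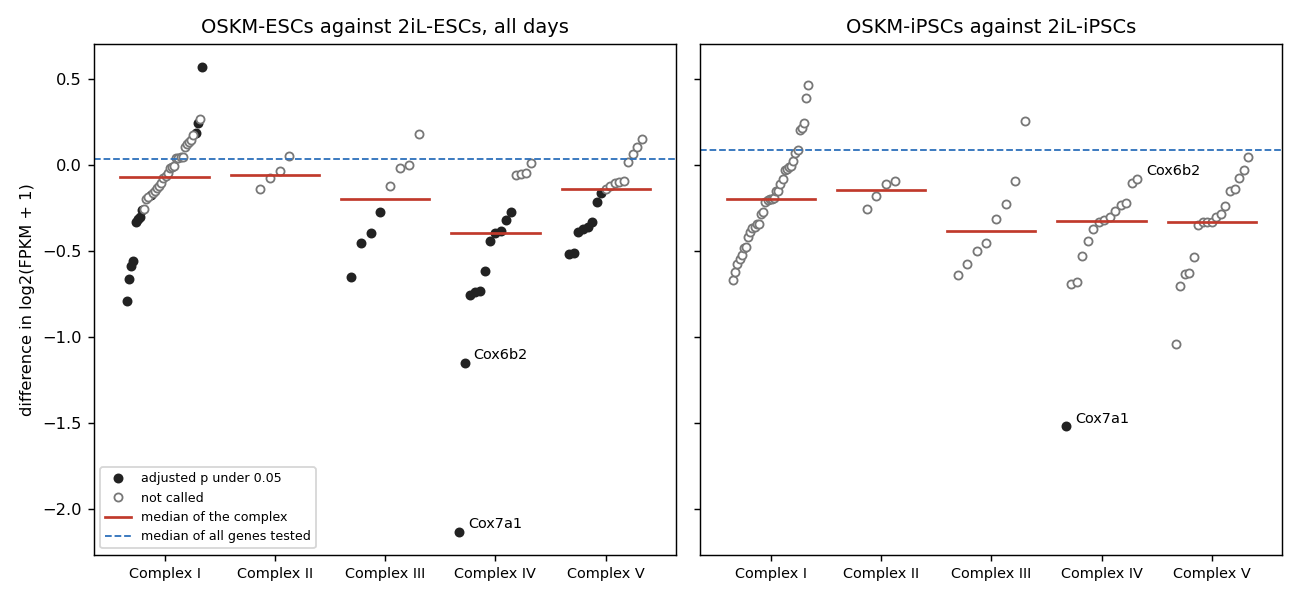
Difference in log2(FPKM + 1) of each nuclear subunit between OSKM and 2iL cells, in ESCs over all days and in iPSCs, by complex. Filled points had an adjusted p under 0.05, red lines are medians of a complex and the dashed line is the median of all genes tested. Cox7a1 stands lowest in both panels (-2.13 and -1.52), and Cox6b2 is low in ESCs (-1.15) but not in iPSCs (-0.08).

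In complex IV, the cytochrome c oxidase that hands electrons to oxygen, the muscle isoform Cox7a1 (chr7:30184144-30186078, ENSMUSG00000074218) had the largest fall. Its FPKM was 1.78 and 2.35 in OSKM-ESCs of day 18, 1.90 and 1.54 at day 25 and 2.17 and 1.25 at day 38, against 9.002 and 8.29, 15.2 and 10.0, and 11.7 and 15.1 in 2iL-ESCs of the same days. The means were 1.83 ± 0.41 and 11.6 ± 3.02 (SD, n = 6 each). All 6 OSKM-ESC libraries were below all 6 of 2iL-ESCs, and the difference was -2.13 (SE 0.16, adjusted p = 5.1e-07). Its partner Cox7a2 had 79.5 to 131.8 FPKM with a median of 91.8 in OSKM-ESCs and 84.5 to 124.9 with a median of 100.3 in 2iL-ESCs, and its difference of -0.06 was not called (SE 0.08, adjusted p = 0.61). The ranges of Cox7a2 overlapped almost wholly. Without OSKM-ESC replicate 2 of day 18 its difference was 0.02.

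Cox6b2 (chr7:4751792-4753094, ENSMUSG00000051811), the testis isoform of a subunit on the intermembrane-space face of the enzyme, had 19.5 and 15.6 FPKM at day 18, 18.7 and 18.8 at day 25 and 21.1 and 20.8 at day 38 in OSKM-ESCs. The 2iL-ESC values were 42.9 and 39.7, 46.7 and 44.7, and 41.2 and 45.2. The groups did not overlap on any day, and the difference was -1.15 (SE 0.07, adjusted p = 9e-08). The widely expressed Cox6b1 fell by 0.32 (SE 0.11, adjusted p = 0.024), from a median of 129.4 FPKM in 2iL-ESCs to 97.1 in OSKM-ESCs with overlapping ranges, and 7 of the 12 fits that left out 1 library no longer called it (adjusted p from 0.051 to 0.057 in those), those without OSKM-ESC day 18 replicate 2, day 25 replicate 2 or either replicate of day 38 and those without 2iL-ESC day 18 replicate 1 or either replicate of day 38.

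Expressed as a share of the pair, Cox7a1 made up 1.22% to 2.54% of Cox7a1 plus Cox7a2 in OSKM-ESCs (median 2.02%) and 6.72% to 14.9% in 2iL-ESCs (median 10.6%). Cox6b2 made up 11.1% to 19.1% of Cox6b1 plus Cox6b2 (median 16.9%) and 20.3% to 30.1% (median 24.9%). Neither share overlapped between the groups. In both pairs the exact 2-sided permutation test over 6 and 6 libraries gave p = 0.0022, the smallest it can give, and 0.0043 adjusted over the 4 shares tested. Groups without overlap always give this smallest value, so the test adds nothing to the lack of overlap. It also shuffled libraries across days, and all of them came from 1 line. The share of Cox4i2, the lung isoform, in the Cox4 pair was at most 0.378% in either group, and that of Atp5g1 among the 3 genes of the c subunit was 23.7% to 30.4% in OSKM-ESCs and 27.3% to 39.2% in 2iL-ESCs (exact permutation p = 0.024 after adjustment). At day 25 the Atp5g1 shares overlapped, at 30.4% and 27.4% in OSKM-ESCs and 29.2% and 27.3% in 2iL-ESCs.

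**Figure D3:**
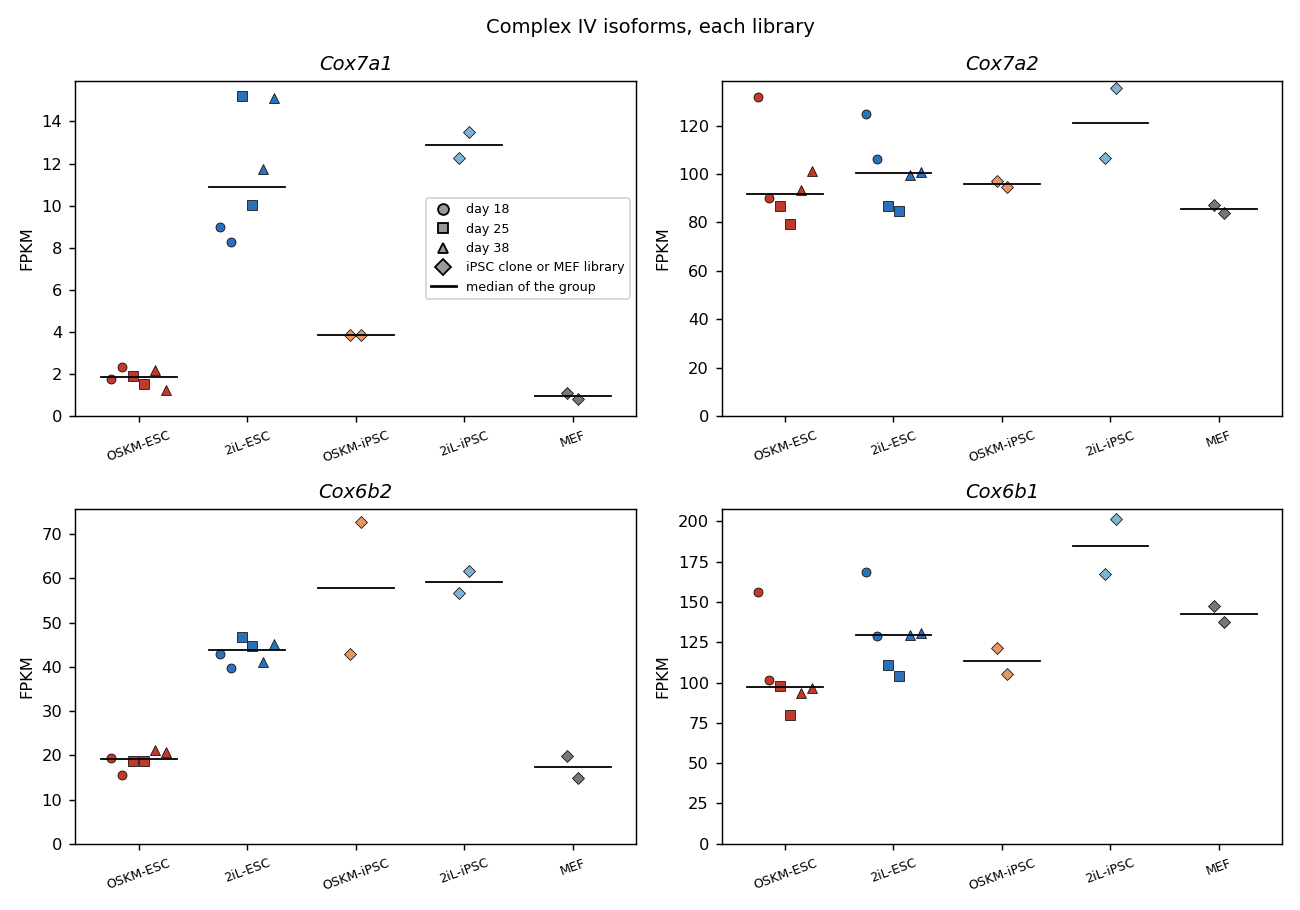
FPKM of Cox7a1, Cox7a2, Cox6b2 and Cox6b1 in every library, by group, with a line at the group median. The OSKM-ESC points of Cox7a1 (1.25 to 2.35) and Cox6b2 (15.6 to 21.1) lie below all 2iL-ESC points, whereas Cox7a2 overlaps, and the OSKM-iPSC clones are near 3.8 for Cox7a1 but at 42.8 and 72.9 for Cox6b2.

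Among the other isoform sets of complex IV, Cox4i1, which nucleates assembly of the enzyme together with Cox5a, had 270.1 to 351.5 FPKM in OSKM-ESCs and 428.9 to 518.0 in 2iL-ESCs, a difference of -0.62 (SE 0.08, adjusted p = 3.3e-05) with no overlap. Cox4i2 fell by 0.75 (adjusted p = 0.00087) at a low level, 0.00 to 0.19 FPKM against 0.18 to 1.63. The testis isoform Cox7b2 fell by 0.73 (adjusted p = 0.0014), with 4 OSKM-ESC libraries at 0 and none over 0.48, against 0.38 to 1.25 in 2iL-ESCs. The pseudocount of 1 shrinks differences at such levels, and with 0.1 those of Cox4i2 and Cox7b2 were -2.15 and -2.46, beyond the -1.19 of Cox6b2. Both genes passed the filter through 2iL-ESC libraries alone, so only a fall could be called, and their calls add no support. They count among the 11 lower subunits of complex IV and the 32 lower members. With a filter on mean FPKM over 1, neither was tested, and 30 members were lower. Cox7b fell by 0.39 (adjusted p = 0.0045), Cox6a1 by 0.38 (adjusted p = 0.0089) and Cox8a by 0.27 (adjusted p = 0.044), each with overlapping ranges. Cox8a kept its call in 3 of the 12 fits without 1 library, those without OSKM-ESC day 18 replicate 1, OSKM-ESC day 25 replicate 1 or 2iL-ESC day 18 replicate 2 (adjusted p from 0.052 to 0.1 in the other 9). It also lost the call with TPM (0.063), totals without mitochondrial genes (0.058), quantile normalization (0.052), no trend (0.061) and no filter (0.094). The muscle isoform Cox6a2 and the testis isoform Cox8c stayed under 1 FPKM everywhere and were not tested, and Cox8b was listed at 0. Ndufa4, named as a complex I gene but known as a complex IV subunit, had a difference of -0.08 (adjusted p = 0.47). Without OSKM-ESC replicate 1 of day 18 it was -0.16 and called (adjusted p = 0.048).

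In complex I, Ndufv3, an accessory subunit of the NADH-binding module, had 27.2 to 48.5 FPKM in OSKM-ESCs (median 30.4) and 49.9 to 64.4 in 2iL-ESCs (median 56.0). The difference was -0.79 (SE 0.11, adjusted p = 7.3e-05). Ndufb5, an accessory subunit of the membrane arm, had 41.3 to 63.3 FPKM (median 47.8) against 66.5 to 83.9 (median 71.3), a difference of -0.58 (SE 0.07, adjusted p = 3.7e-05). Neither gene overlapped between the media. The core subunit Ndufv1 fell by 0.31 (adjusted p = 0.00017). The 3 upregulated members, named here because they are so few, were Ndufa2 (0.57, adjusted p = 0.00099), Ndufa8 (0.24, adjusted p = 0.023) and Ndufs3 (0.19, adjusted p = 0.023), and all 3 had overlapping ranges. Ndufa2 had 46.3 to 92.2 FPKM in OSKM-ESCs and 34.4 to 51.6 in 2iL-ESCs.

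Complex II, succinate dehydrogenase, is also an enzyme of the citric acid cycle. Its flavoprotein Sdha had 112.0 to 123.9 FPKM in OSKM-ESCs and 117.1 to 133.1 in 2iL-ESCs, and the difference of -0.08 (SE 0.05) was not called (adjusted p = 0.18). The iron-sulfur subunit Sdhb had a difference of -0.14 (adjusted p = 0.12), and the membrane anchors Sdhc and Sdhd had -0.04 (adjusted p = 0.74) and 0.05 (adjusted p = 0.59). All 4 ranges overlapped. Without OSKM-ESC replicate 1 of day 18, Sdhb had a difference of -0.21 and was called (adjusted p = 0.0056).

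In complex III, Uqcrc1, a core protein of the cytochrome bc1 complex, had 99.7 to 156.9 FPKM in OSKM-ESCs (mean 130.4 ± 20.6 SD, n = 6) and 189.4 to 218.9 in 2iL-ESCs (203.5 ± 11.8). The groups did not overlap, and the difference was -0.65 (SE 0.07, adjusted p = 9.2e-06). Its partner core protein Uqcrc2 fell by 0.27 (adjusted p = 0.0019), Uqcr10 by 0.45 (adjusted p = 0.0052) and Uqcrb by 0.40 (adjusted p = 0.00034), whereas the Rieske iron-sulfur protein Uqcrfs1 had a difference of -0.02 (adjusted p = 0.81).

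In complex V, Atp5a1 and its catalytic partner Atp5b fell together. Atp5a1 had 421.0 to 512.7 FPKM in OSKM-ESCs (mean 469.2 ± 38.1 SD, n = 6) and 566.9 to 637.9 in 2iL-ESCs (601.1 ± 25.4), a difference of -0.36 (SE 0.06, adjusted p = 0.00029). Atp5b had 720.2 to 811.8 FPKM (751.9 ± 38.9) and 898.8 to 980.4 (946.0 ± 36.5), a difference of -0.33 (SE 0.05, adjusted p = 0.00029). Every OSKM-ESC library was below every 2iL-ESC library for both. Atp5g1, Atp5g2 and Atp5g3 encode the same mature c subunit of the rotor ring, and how far their transcripts share reads was not tested. Atp5g1 fell by 0.51 (adjusted p = 0.019) and Atp5g3 by 0.21 (adjusted p = 0.034), and Atp5g2 had a difference of 0.06 (adjusted p = 0.53). For Atp5g1, OSKM-ESCs lay below 2iL-ESCs at days 18 and 38 but overlapped them at day 25, at 211.9 and 165.6 FPKM against 195.0 and 170.7. Atp5g3 kept its call in 5 of the 12 fits without 1 library, those without OSKM-ESC day 18 replicate 1, either OSKM-ESC replicate of day 25, 2iL-ESC day 18 replicate 2 or 2iL-ESC day 25 replicate 2 (adjusted p from 0.052 to 0.082 in the other 7). It also lost the call with TPM (0.051), no trend (0.055), no filter (0.066) and in 1 fit of all conditions (0.056), and Atp5g1 with no filter (0.054).

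The promoter windows of the members were searched on both strands for binding motifs of factors known to control nuclear respiratory genes. The palindromic NRF1 motif, whose letters are the capitals in the Cox6a1 and Ndufa11 sequences given here, was found in 5 of 68 member windows (7.35%) and in 0.971% of all 32841, in Atp5g2, Atp5k, Cox6a1, Ndufa11 and Uqcrc1. The GABPA motif CCGGAAGT was in 5 of 68 (7.35%) and 3.89% of all, and the YY1 motif AAGATGGC in 9 of 68 (13.2%) and 2.75% of all. No member window held more than 1 of these motifs, and 1 window per symbol was read. Member windows held more CG dinucleotides than all windows (medians of 19.0 and 7.0), and the part of this in the motif shares was not tested. Of the 5 genes with the NRF1 motif, Uqcrc1, Cox6a1 and Ndufa11 were downregulated in OSKM-ESCs and Atp5g2 and Atp5k were not called. Among all members tested 40.0% were downregulated, and among all genes 24.4%, and a link between the motif and these calls was not tested. A match is a run of letters and not a shown site. The motif lies upstream of the annotated start in Cox6a1 (chr5:115349086-115349145, -) and Ndufa11 (chr17:56717677-56717736, +), shown here on GRCm38.p6 with the NRF1 motif in capitals.
Cox6a1: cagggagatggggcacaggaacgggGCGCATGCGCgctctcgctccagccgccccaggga
Ndufa11: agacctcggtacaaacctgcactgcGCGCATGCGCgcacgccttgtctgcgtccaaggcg

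The media were also compared on each day. At day 18, 18 of 80 members were downregulated and 2 upregulated (background 20.5% and 29.7% of all genes), at day 25 22 and 4 (28.3% and 23.3%), and at day 38 26 and 0 (21.1% and 29.2%). The downregulated counts of days 18 and 25 are near the background shares, and that of day 38 is above it. The median difference of the members was -0.11, -0.06 and -0.28, and that of all genes 0.07, -0.04 and 0.07. Complex IV had medians of -0.27, -0.34 and -0.51. A difference between days in the effect of medium was called for 5 of 80 members, where 37.9% of all genes were called. They were named because they are so few. Cox7a2l, which joins complexes III and IV into supercomplexes, was higher at day 18 (0.40) and lower at day 25 (-0.22), with -0.14 at day 38 (adjusted p of the difference between days 0.0053). Atp5o, a subunit of the peripheral stalk, had -0.32, -0.22 and -0.64 (adjusted p = 0.034), Cox4i2 had -0.27, -1.16 and -0.84 (0.021), Ndufc1 had 0.15, -0.47 and -0.27 (0.021), and Ndufa8 had 0.12, 0.51 and 0.09 (0.039). The count lay between 1, without 2iL-ESC day 18 replicate 2, and 14, without OSKM-ESC day 18 replicate 2. It was 11 without OSKM-ESC day 18 replicate 1, 8 without OSKM-ESC day 25 replicate 2, 2 without 2iL-ESC day 25 replicate 2, and 3 without OSKM-ESC day 38 replicate 1, 2iL-ESC day 18 replicate 1, 2iL-ESC day 25 replicate 1 or 2iL-ESC day 38 replicate 2.

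Within a medium, 45 of 80 members (56.2%) differed between days in 2iL-ESCs and 15 of 78 (19.2%) in OSKM-ESCs, where 50.8% and 38.6% of all genes did. Complex III had 7 of 8 subunits and complex V 12 of 17 called between days in 2iL-ESCs, against 2 and 4 in OSKM-ESCs. Both counts moved with single libraries and with length. With the length trend removed, 25 were called in 2iL-ESCs and 9 in OSKM-ESCs. The 2iL-ESC count was 27 and 21 without day 25 replicate 1 or 2. The OSKM-ESC count was 50 without day 18 replicate 2, 4 without day 18 replicate 1, 9 without day 25 replicate 1, and 1 without either replicate of day 38.

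The 13 subunits made from mitochondrial DNA form the core of complexes I, III, IV and V. In these files mt-Nd1, mt-Nd2 and mt-Nd4l were listed at 0 in all 18 libraries, mt-Atp6 in 13, mt-Atp8 in 12 and mt-Co3 in 5, although cells that respire use these genes. The authors kept uniquely mapped reads, and its part in these zeros was not tested. mt-Atp6 was listed at 719.1 and 2210 FPKM in OSKM-ESCs of day 25, 2283 in 2iL-ESC day 38 replicate 1, 2640 in 2iL-iPSC clone 3 and 480.9 in MEF replicate 2, so libraries of the same group stood both at 0 and at these values. No test is given for genes at 0 in any ESC library, and mt-Co2, at 0.71 to 2.96 FPKM in all libraries, had a difference of -0.24 (adjusted p = 0.36).

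Of the mitochondrial genes with high values, mt-Co1, the catalytic subunit of complex IV, was lower in OSKM-ESCs. It had 4746 and 5706 FPKM at day 18, 3940 and 5949 at day 25 and 5551 and 5590 at day 38, against 6526 and 9091, 7914 and 8499, and 8833 and 8073 in 2iL-ESCs. All OSKM-ESC libraries were below all 2iL-ESC libraries, and the difference was -0.64 (SE 0.12, adjusted p = 0.00053). After quantile normalization it was -0.05 and not called. That method gives genes of equal rank the same value in every library, and its part in this loss was not tested. Of the 12 alternative settings, 10 kept the call of mt-Co1, and the paper's 2-fold cutoff also lost it. mt-Cytb, the catalytic core of complex III, went the other way, with 3221 to 4384 FPKM (median 3316) against 1645 to 3234 (median 2320), a difference of 0.63 (SE 0.15, adjusted p = 0.0033). Over the 12 alternative settings, with quantile normalization among them, the mt-Cytb difference was 0.59 to 0.67. Within a day the media overlapped for mt-Cytb at day 18 only, where the difference was 0.19 (adjusted p = 0.27), and it was 1.21 at day 25 and 0.50 at day 38 (adjusted p of the difference between days 0.0055). mt-Nd3, which is not among the genes with high values, was higher by 0.78 (adjusted p = 0.0044) at 8.49 to 34.2 against 7.82 to 14.3 FPKM. In MEF cells mt-Nd3 was listed at 0 and 0.03 FPKM, and the part of unique mapping in its values was not tested. The high genes mt-Nd4, mt-Nd5 and mt-Nd6 had differences of 0.23, -0.07 and -0.11 that were not called. mt-Nd4 was called without OSKM-ESC day 25 replicate 1 (0.30, adjusted p = 0.046) or 2iL-ESC day 18 replicate 2 (0.31, adjusted p = 0.032). Without OSKM-ESC day 25 replicate 1, mt-Nd5 and mt-Nd6 had differences of 0.02 and 0.10, and without 2iL-ESC day 18 replicate 2 mt-Nd6 had 0.01.

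**Figure D4:**
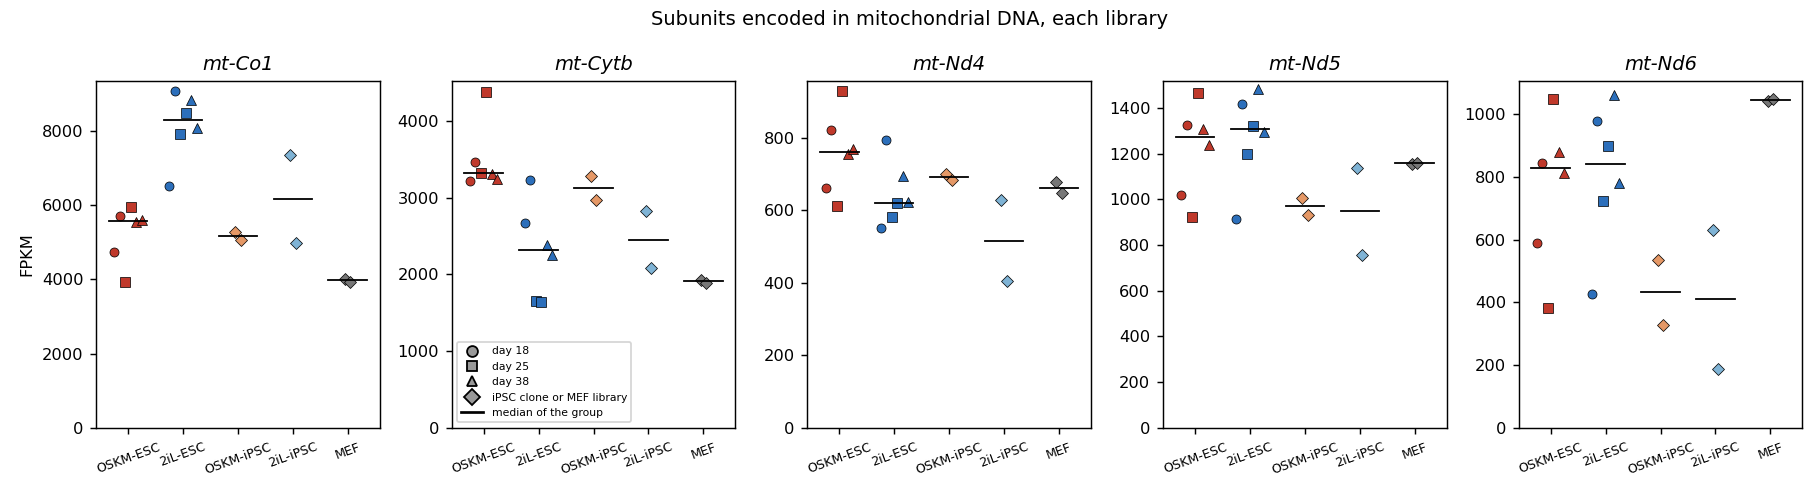
FPKM of the 5 mitochondrially encoded subunits with high values in every library, by group, with a line at the group median. mt-Co1 is lower in OSKM-ESCs (3940 to 5949) than in 2iL-ESCs (6526 to 9091), mt-Cytb is mostly higher, and mt-Nd4, mt-Nd5 and mt-Nd6 overlap.

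Genes around the chain were read from lists of assembly factors, regulators and partner enzymes. Over all days in ESCs, complex I assembly factors had 3 of 15 upregulated and 5 downregulated, complex IV assembly factors 4 and 5 of 21, and the assembly factors of complexes II, III and V 1 of 4, 2 of 6 and 2 of 4 upregulated with 0 downregulated, against the background of 29.5% and 24.4%. Of the mtDNA expression factors, 0 of 19 were upregulated and 6 downregulated, with Tefm, the mitochondrial transcription elongation factor, at -0.49 (adjusted p = 0.00029). Of 8 regulators of nuclear respiratory genes, 0 rose and 3 fell, with Gabpa, which binds the motif given above, at -0.65 (adjusted p = 0.0002) and 17.5 to 25.8 FPKM against 28.2 to 40.6.

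Among 18 electron carriers and quinone-linked enzymes, 3 were upregulated and 10 downregulated, where 29.5% and 24.4% of all genes were. The same background holds for the lists that follow here. The testis cytochrome c Cyct fell by 1.81 (adjusted p = 1.5e-07), at 0.37 to 1.05 FPKM against 4.10 to 5.55, while the somatic cytochrome c Cycs rose by 0.29 (adjusted p = 0.0013), at 32.1 to 51.0 against 26.7 to 45.2. Of 14 citric acid cycle enzymes, 3 rose and 7 fell, and the largest fall was that of the mitochondrial NADP-dependent dehydrogenase Idh2, at -1.04 (adjusted p = 1.9e-05). Of 5 other isoform and uncoupling genes, 0 rose and 3 fell. Ndufa4l2, a relative of Ndufa4, fell by 2.35 (adjusted p = 0.0015), and its 2iL-ESC values were 1.70 and 0.49 FPKM at day 18 but 19.5 to 24.6 at days 25 and 38 (adjusted p of the difference between days 6.8e-05).

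In iPSCs, OSKM-iPSCs were compared with 2iL-iPSCs, 2 clones each. Among 79 members tested, 1 was downregulated and 0 upregulated, where 2.96% and 5% of all 13653 genes were. At an unadjusted p under 0.05 there were 20 of the 79 members, and 29.3% of all genes. The member called was Cox7a1, with 3.86 and 3.83 FPKM in OSKM-iPSC clones 1 and 3 and 12.3 and 13.5 in 2iL-iPSC clones 3 and 6, a difference of -1.52 (SE 0.19, adjusted p = 0.018). It was not called without 2iL-iPSC clone 3 or clone 6 (adjusted p = 0.32 each), which left 0 members called, and 3 members were called without OSKM-iPSC clone 3. The members' median difference was -0.27 and that of all genes 0.09, and 69 of 79 differences were negative. With the length trend removed, the members' median was -0.14. Quantile normalization moved the share of upregulated genes among all calls from 62.8% to 49.9%. The fibroblast markers summed to 4.56 to 72.4 FPKM over the OSKM-iPSC clones and to 2.00 to 3.53 over the 2iL-iPSC clones, and their part was not tested. In 1 fit of all 9 conditions, which shares the spread of all groups, 25 members were lower and 1 higher, where 15.2% and 25.2% of all genes were.

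Of the mitochondrial genes, mt-Co1 had 5274 and 5049 FPKM in OSKM-iPSCs, 7367 and 4971 in 2iL-iPSCs and 4008 and 3941 in MEF cells, and mt-Cytb had 3280 and 2973, 2821 and 2080, and 1933 and 1886. Neither was called between the 2 kinds of iPSC, and the 2iL-iPSC clones differed more from each other than the OSKM-iPSC clones did.

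The 2 clones of OSKM-iPSCs differed at X-linked members. Ndufa1 had 33.1 FPKM in clone 1 and 81.8 in clone 3, Ndufb11 45.7 and 90.8, and Cox7b 77.4 and 162.9. The median log2 difference of these 3 was 1.06, that of the 75 other nuclear members over 1 FPKM was 0.18, that of all 490 X-linked genes over 1 FPKM was 0.46 and that of 12384 other genes was -0.02.

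Whether medium differed in effect between iPSCs and ESCs was tested in 1 fit, in which line, strain and passage cannot be told apart from cell type. Of 80 members, 1 had a more positive and 2 a more negative effect in iPSCs, against 8.67% and 5.55% of all genes. Cox6b2, at -1.15 in ESCs, had a difference of -0.08 in iPSCs with 42.8 and 72.9 FPKM in OSKM-iPSC clones 1 and 3 and 56.7 and 61.8 in the 2iL-iPSC clones, and the change in effect was 1.07 (SE 0.22, adjusted p = 0.0089). Atp5j, coupling factor 6 of ATP synthase, and Ndufa5, an accessory subunit of complex I, had changes in effect of -0.37 (adjusted p = 0.023) and -0.46 (adjusted p = 0.024). These 2 were not called with the length trend removed, where 0 members were more negative and 3 more positive. Without OSKM-iPSC clone 1, 5 were more positive, and 2 without OSKM-ESC day 18 replicate 1. Without OSKM-iPSC clone 3, 6 were more negative, and 1 without 2iL-iPSC clone 6.

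Both kinds of iPSC were also set against the same 2 MEF libraries, so the comparisons share their controls. In 2iL-iPSCs, 46 of 81 members were upregulated and 4 downregulated (background 40.6% and 37.4%), with a median difference of 0.46 where all genes had 0.09. In OSKM-iPSCs, 18 of 80 were upregulated and 2 downregulated (background 34% and 26.4%), with a median of 0.13 where all genes had 0.19. Median-ratio scaling moved the OSKM-iPSC counts to 9 higher and 13 lower and the members' median to -0.14 where all genes had -0.04, so the direction of the OSKM-iPSC median depends on the scaling, while relative to all genes it was -0.06 and -0.10. For 2iL-iPSCs it was 0.36 and 0.34 relative to all genes, and 0.19 with quantile normalization. TPM gave 15 higher and 6 lower members and quantile normalization 14 and 4 in OSKM-iPSCs, and the share of upregulated genes among all calls was 45.3% with median-ratio scaling and 56.3% without. Leaving out either MEF library left 16 members higher in 2iL-iPSCs and 0 in OSKM-iPSCs, and OSKM-iPSC clone 1 left out gave 32 higher and 4 lower, and clone 3 left out 8 lower. No member was lower in OSKM-iPSCs without either MEF library. In 2iL-iPSCs 0 were lower without MEF replicate 1 and 1 without MEF replicate 2 or 2iL-iPSC clone 3.

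The genes with the largest changes against MEF cells were the same in name in the 2 comparisons, which share controls. Cox7a1 had 1.08 and 0.81 FPKM in MEF cells and was higher by 2.84 in 2iL-iPSCs (adjusted p = 5.7e-05) and by 1.32 in OSKM-iPSCs (adjusted p = 0.0048). Cox6b2 had 19.9 and 14.8 FPKM in MEF cells and was higher by 1.73 (adjusted p = 0.00047) and 1.65 (adjusted p = 0.013). Ndufs6, an accessory complex I subunit, had 24.9 and 26.8 FPKM in MEF cells, 75.1 and 103.3 in 2iL-iPSCs and 59.6 and 72.3 in OSKM-iPSCs, differences of 1.73 (adjusted p = 0.00058) and 1.31 (adjusted p = 0.0032). Cox4i2 and Ndufb4c exceeded 1 FPKM in no iPSC library and passed the filter through MEF cells alone, so only a fall could be called. They were the 2 members lower in OSKM-iPSCs, where a filter on the mean left 0 lower. Cox4i2 had differences of -0.52 (adjusted p = 0.023) and -1.12 (adjusted p = 0.019), at 1.63 and 1.54 FPKM in MEF cells. Ndufb4c, a processed pseudogene whose reads may be shared with Ndufb4, had differences of -0.83 (adjusted p = 0.012) and -1.47 (adjusted p = 0.006), and Ndufa2 had -0.38 in 2iL-iPSCs (adjusted p = 0.037). In OSKM-iPSCs all 5 of these calls, and in 2iL-iPSCs that of Cox4i2 and Ndufb4c, were lost without MEF replicate 1 or 2 (adjusted p from 0.062 to 0.13). Ndufb4c also lost its 2iL-iPSC call without either 2iL-iPSC clone (adjusted p = 0.093 without clone 3 and 0.052 without clone 6), and Ndufa2 lost its call without MEF replicate 1 (0.14) or either clone (0.2 and 0.17).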

How the data were processed

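The authors purified mRNA on poly-T beads, aligned reads to GRCm38 with STAR 2.7.1a, kept uniquely mapped reads and deposited FPKM values from StringTie 2.0. The coverage deposited beside them is an unscaled signal and was used only to look at depth, which is unknown in reads, so that no counting interval is given. The deposited TPM values were not used, and Cuffdiff 2.2.1 comparisons of the study were not used either. Left out were 2 genes whose value had failed in a library, and 11 repeated identifiers were summed. From 11303 to 12095 genes of a library exceeded an FPKM of 1.

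Values of log2(FPKM + 1) were fitted with limma 3.58.1 (eBayes with trend). Genes entered a comparison if any of its libraries exceeded an FPKM of 1, and p-values were adjusted over all of them by the Benjamini-Hochberg method. Differences on this scale understate those of low genes. Each comparison used its own libraries, with day as a covariate in ESCs. Labels do not say whether the 2 cultures of a day were independent, so p-values measure the spread between these samples. No sequencing batch is given in the labels. The fits were tested on simulated data with 2 sizes of change, and those of 2 against 2 libraries missed the smaller size. The simulated data held far fewer changed genes than were called in these comparisons, so they do not measure what the real fits miss. Against MEF cells, the real fits also called members that differed by less than 2-fold. With 2 libraries a group, a lack of calls still says little. Gene positions are those of the files, and promoter sequences are RefSeq's.

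The members and lists were chosen with earlier results of these data known. Named genes were, per complex, the 2 largest rises and 2 largest falls without overlap in ESCs over all days, the Sdh genes, the isoform sets with Ndufa4, the mitochondrial genes, the 3 largest called rises and falls in each iPSC comparison, and the 2 largest of each other list. Others were named after their values were seen. Alternatives were a pseudocount of 0.1, other filters, other scalings, eBayes without trend, 1 fit of all 9 conditions, the cutoff of the paper (2-fold with an unadjusted p), a replicate block and leaving out each replicate. Removal of a trend on transcript length was added after seeing the data. A result for 1 gene is not reported here.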

Additional observations from a re-analysis of the deposited data

Results flagged for a closer look

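Several values stood out among the named subunits. In 1 library of a group of 6, a value lay far from the other 5 in 6 of the 66 gene and group pairs checked. Chance gives about 1 in 20 where the 6 values are independent draws from the same normal spread. Each group here pools 3 days, and the pairs share libraries, so that rate need not hold. OSKM-ESC day 18 replicate 1 was the highest for Cox6b1 (156.2 FPKM), Cox7b (111.9 FPKM) and Sdhc (31.95 FPKM), 2iL-ESC day 18 replicate 1 was the highest for Cox7b (143.8 FPKM) and Cox8a (331.4 FPKM), and OSKM-ESC day 25 replicate 2 was the highest for mt-Cytb (4384 FPKM).

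The effect of medium differed between days for Cox4i2 (adjusted p = 0.021) and mt-Cytb (adjusted p = 0.0055), and between iPSCs and ESCs for Cox6b2 (adjusted p = 0.0089), in limma's tests of the difference itself.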

How the results depend on the processing

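In ESCs over all days, 3 nuclear members were higher and 32 lower. The 3 became 8 with TPM and with totals that leave out mitochondrial genes, 1 with median-ratio scaling, 5 with quantile normalization and in 1 fit of all conditions, and 0 at the paper's cutoff, where the 32 became 4. The 5 members that differed between days became 3 without trend. The 15 members called between days in OSKM-ESCs became 4 without a filter and 9 with the length trend removed, and the 45 of 2iL-ESCs 25 with that trend removed. In OSKM-iPSCs against 2iL-iPSCs, the 0 higher members became 1 in 1 fit of all conditions and 1 with the length trend removed, and the 1 lower member became 0 without a filter, 2 at the paper's cutoff and 25 in 1 fit. Against MEF cells, the 18 members higher in OSKM-iPSCs became 9 with median-ratio scaling and 5 at the paper's cutoff, and the 2 lower became 1 with a pseudocount of 0.1, 6 with TPM and without mitochondrial genes, 13 with median-ratio scaling, 4 with quantile normalization and 0 with a filter on the mean. For 2iL-iPSCs, the 46 higher became 12 at the paper's cutoff, and the 4 lower became 1 without a filter, 2 without trend, 1 at the paper's cutoff and 7 with the length trend removed. The 1 and 2 members whose medium effect differed between iPSCs and ESCs became 3 and 0 with the length trend removed. The causes of these changes were not tested, other than that the paper's cutoff asks for a 2-fold change.

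With 1 library left out, the ESC counts ranged from 2 to 5 higher and 26 to 37 lower, members that differed between days from 1 to 14, members called between days from 1 to 50 in OSKM-ESCs and 21 to 60 in 2iL-ESCs, iPSC counts were 0 higher throughout and 0 to 3 lower, counts against MEF cells ranged from 0 to 32 higher and 0 to 8 lower in OSKM-iPSCs and 16 to 47 higher and 0 to 3 lower in 2iL-iPSCs, and the difference between iPSCs and ESCs from 1 to 5 and 1 to 6. Differences that changed sign were small and not called in either fit. Sdhc was 0.0021 with TPM and 0.0021 without mitochondrial genes, and from -0.11 to 0.00025 with 1 library left out (highest without 2iL-ESC day 25 replicate 2). mt-Nd5 was 0.035 with quantile normalization and from -0.16 to 0.020 with 1 library left out (highest without OSKM-ESC day 25 replicate 1). Cox7a2 ranged from -0.12 to 0.015 (highest without OSKM-ESC day 18 replicate 2) and mt-Nd6 from -0.29 to 0.10 (above 0 without OSKM-ESC day 25 replicate 1, and 0.012 without 2iL-ESC day 18 replicate 2). Of the other values for named genes, 803 kept direction and side of the threshold, 80 lost the call and 5 gained it.

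Cultures of the same number in the 2 media share only a number: the correlation of their deviations was 0.13, 0.09 and 0.01 at days 18, 25 and 38. With a replicate block, 4 members were higher and 32 lower, 7 differed between days, and 19 and 41 were called between days in OSKM-ESCs and 2iL-ESCs, and mt-Nd4 was called (adjusted p = 0.038). No paired analysis was possible because iPSC and MEF libraries share fewer than 2 numbers.

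Depth is unknown in reads, and comparisons of iPSCs with each other or with MEF cells rest on 2 libraries a group.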
